A study of Mus musculus with 8 samples.

Results

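The 10 genes examined were 8 transcription factors that drive or maintain mesenchyme (Twist1, Twist2, Prrx1, Prrx2, Snai1, Snai2, Zeb1 and Zeb2), the noncoding transcript Dnm3os, which has been linked to Twist1, and Dnm3, the gene in which Dnm3os lies. They were taken by symbol from a table of 55487 gene rows, and all 10 were found. The set was chosen by family around Twist1 and Dnm3os, whose counts were already known to differ between the lines, and therefore the differences between the lines given for these 10 genes are descriptions and no p-value is attached to them. The cells were mouse E14-Tg2a embryonic stem cells differentiated for 6 days towards precardiac mesoderm. Of 8 libraries, 4 came from the parental line, with wild-type Tbx1, and 4 from line 4D, with the genotype Tbx1-/-, here called the mutant line. Tbx1 is a T-box factor of the pharyngeal and outflow tract progenitors. Since the mutant libraries all came from 1 line, the genotype and other properties of that line cannot be told apart.

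Epithelial-mesenchymal transition is the step in which cells give up their junctions and polarity and become migratory. Snai1, Snai2, Zeb1 and Zeb2 are zinc finger proteins that bind E-boxes and repress epithelial genes such as Cdh1, which encodes E-cadherin. Twist1 and Twist2 are basic helix-loop-helix (bHLH) factors that bind E-boxes as dimers, often with the E proteins Tcf3, Tcf4 and Tcf12, and the Prrx proteins are paired-type homeodomain factors of limb, craniofacial and cardiac mesenchyme. In the heart these genes are known from the endocardial cushions, the epicardium and the neural crest. Dnm3os is the primary transcript of miR-199a-2 and miR-214.

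The 4 mature microRNAs encoded within Dnm3os are shown because this transcript had the highest fold difference among the 10 genes, with the seed (bases 2 to 8) in capitals. The sequences are from RefSeq on GRCm38.p6, chromosome 1, plus strand.
mmu-miR-199a-5p (chr1:162217844-162217866): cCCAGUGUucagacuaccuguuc
mmu-miR-199a-3p (chr1:162217883-162217904): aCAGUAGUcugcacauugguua
mmu-miR-214-5p (chr1:162223397-162223418): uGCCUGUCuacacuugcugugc
mmu-miR-214-3p (chr1:162223438-162223459): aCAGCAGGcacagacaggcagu
The 4 seeds differ from one another. The seed of miR-199a-3p is shared with miR-199b-3p, whose mature sequence in the table is the same, and both miR-199a arms are also encoded by Mir199a-1 on chromosome 9. The seed of miR-214-3p is shared with miR-761. The microRNAs themselves were not measured, since the libraries hold the 3′ ends of polyadenylated RNA. The rows Mir199a-1, Mir199a-2, Mir199b and Mir214 had 0 counts in every library.

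QuantSeq, the assay used, reads each polyadenylated RNA once near its 3′ end, so that counts do not grow with transcript length. Levels of different genes are set side by side on this basis. Other differences between genes in how fully their 3′ ends are counted were not checked. Library totals ranged from 3803561 to 6293907 counts. Levels are given as CPM, counts per 1000000 after trimmed-mean (TMM) scaling. A gene is called, and said to have risen or fallen, when its adjusted p in the edgeR quasi-likelihood test was under 0.05 over the 13280 genes tested. Tbx1 itself had 39, 65, 38 and 22 counts in the parental and 3, 0, 1 and 0 in the mutant libraries. Mutant library 4 stood apart, with correlations of 0.857 to 0.881 with the other libraries across genes, against 0.92 to 0.944 among the others, and results are also given without it where it matters. Of the markers of the labelled state, Isl1 had a mean of 74.1 ± 3.20 CPM in the parental line against 47 ± 15.2 CPM in the mutant line (SD, n = 4 per line) and Hand2 had 351 ± 19.5 and 462 ± 39.1 CPM.

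In the whole comparison 188 of 13280 genes (1.42%) were called, 99 higher (0.745%) and 89 lower (0.67%) in the mutant line. With scaling by library size alone the split was 100 higher and 57 lower. All 10 genes passed the filter on low counts, and 2 of them, Twist1 and Dnm3os, were among the called genes, both higher in the mutant line. Because earlier knowledge of these calls led to the choice of the genes, nothing is read from that count. Of the 10 log2 fold changes 9 were positive, against 50.2% of all tested genes, with a median of 0.64 against 0.001 over all tested genes.

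**Figure D1:**
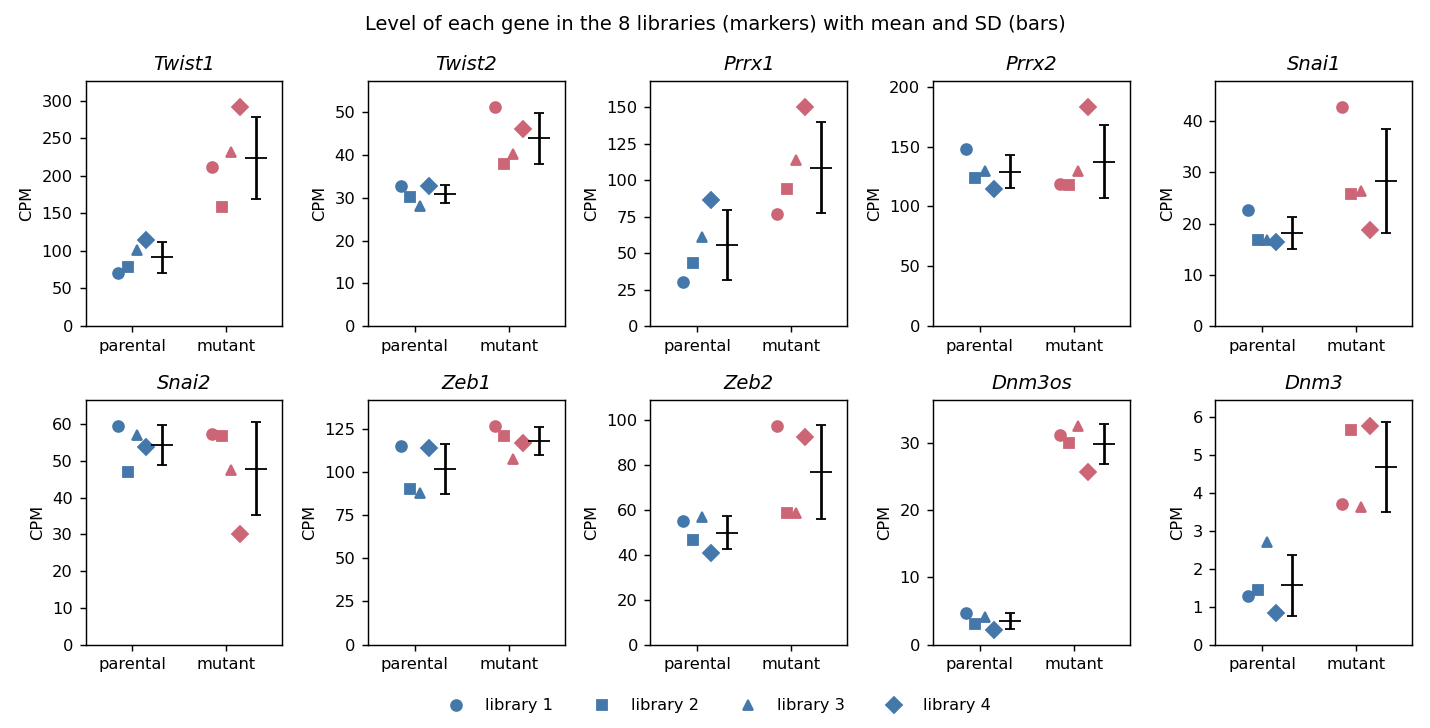
Level of the 10 genes in CPM (y axes, linear, each with its own scale) in the 4 parental (blue) and 4 mutant (red) libraries. Each marker shape is a replicate number, and black bars give the mean and SD per line. Twist1, Twist2, Zeb2, Dnm3os and Dnm3 show no overlap between the lines, whereas the ranges of the other 5 overlap, with mutant library 4 the lowest for Snai2 and the highest for Prrx2.

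Dnm3os (ENSMUSG00000078190.7, GRCm38 chromosome 1, 162217623 to 162225550, plus strand) is annotated as an antisense gene inside Dnm3. Its parental levels were 4.73, 3.05, 4.15 and 2.11 CPM in libraries 1 to 4, from 26, 17, 26 and 10 counts. Its mutant levels were 31.1, 29.9, 32.5 and 25.6 CPM, from 185, 137, 179 and 93 counts. The lines did not overlap, and the mutant values were closely grouped, with mutant library 4 the lowest. The log2 fold change was 3.07 ± 0.31 (SE), or 8.38-fold, and it was 3.13 without mutant library 4.

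Dnm3 (ENSMUSG00000040265.16, chromosome 1, 161982453 to 162478034, minus strand) encodes dynamin 3, a membrane-fission GTPase best known from neurons and testis. It had 7, 8, 17 and 4 counts in parental and 22, 26, 20 and 21 in mutant libraries. These values did not overlap between the lines but rest on few counts, and the log2 fold change of 1.55 ± 0.68 was not past the threshold. In the M21 annotation, no exon of Dnm3os overlapped an exon of Dnm3 and the nearest Dnm3 exon was 6104 bp away. The name of the count table gives counting on the forward strand, which would keep the 2 genes apart. Dnm3os made up 69.7 ± 7.61% of the CPM of the pair in parental and 86.2 ± 4.09% in mutant libraries (SD, n = 4), without overlap.

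The other dynamin genes were read for comparison, because Dnm1 and Dnm2 also carry a miR-199 gene on their opposite strand. Dnm2, the ubiquitous dynamin, had 41.7 ± 3.23 CPM in the parental line against 39.2 ± 3.69 CPM in the mutant line (SD, n = 4). Dnm1l, which divides mitochondria and peroxisomes, had 59.8 ± 7.83 and 57.6 ± 7.91 CPM, and neuronal Dnm1 had 5.21 ± 0.533 and 9.24 ± 3.55 CPM. With edgeR, 0 of these 3 were called, 0 had an unadjusted p under 0.05, and DESeq2 and limma-voom called 0.

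Twist1 (ENSMUSG00000035799.6, chromosome 12, 33957671 to 33959829, plus strand) had the highest mutant level of the 10 genes. Its parental levels were 70, 78.9, 101 and 115 CPM in libraries 1 to 4. Its mutant levels were 212, 158, 232 and 291 CPM. Every mutant library was above every parental one, the lowest mutant value being that of library 2 and the highest that of library 4. The log2 fold change was 1.29 ± 0.18 (SE), or 2.44-fold, and 1.13 without mutant library 4. Twist1 and Dnm3os kept the call in all 16 alternative fits, including each of the 8 that left out 1 library. The fits reuse the same libraries, and both genes were chosen with the difference known, so this adds no support.

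Twist2 (ENSMUSG00000007805.4, chromosome 1, 91801461 to 91848028, plus strand), a dermal and mesenchymal bHLH factor with a near-identical DNA-binding domain, was lower than Twist1 in every library. Its parental levels were 32.7, 30.1, 28.2 and 32.7 CPM and its mutant levels 51.2, 37.9, 40.3 and 46.2 CPM. The lines did not overlap, with a log2 fold change of 0.51 ± 0.18 that was not past the threshold. Of the summed CPM of both genes, Twist1 held 74.2 ± 4.83% in parental and 83.2 ± 3.00% in mutant libraries (SD, n = 4), without overlap.

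Prrx1 (ENSMUSG00000026586.16, chromosome 1, 163245119 to 163313710, minus strand) had parental levels of 30.5, 43.4, 61.3 and 86.2 CPM. Its mutant levels were 76.8, 93.9, 114 and 150 CPM. The highest parental library lay above the lowest mutant one, so the lines overlapped through those 2 libraries. In both lines the level rose with the replicate number, and each mutant library was above the parental library of the same number. The labels do not say whether the numbers pair the libraries. The log2 fold change of 0.97 ± 0.25 was not past the threshold, and 0.78 without mutant library 4. The call appeared in 5 of 16 alternative fits, among them that with the replicate number as a block (1.76% of all genes called), that with no filter on low counts (1.64%), limma-voom and the fits without mutant library 1 and without parental library 4 (log2 fold changes of 1.10 and 1.26).

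Prrx2 (ENSMUSG00000039476.13, chromosome 2, 30834972 to 30881251, plus strand), which acts with Prrx1 in limb and face, had the highest parental level of the 10 genes. Its parental levels were 148, 124, 130 and 115 CPM and its mutant levels 119, 118, 130 and 183 CPM. Only mutant library 4 was above the parental range. The log2 fold change was 0.08 ± 0.15, turned to -0.08 without mutant library 4, and ranged from -0.08 to 0.15 over the alternatives. The share of Prrx1 in the sum of both Prrx genes ran from 17.1% to 42.8% in parental and from 39.2% to 46.7% in mutant libraries.

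Snai1 (ENSMUSG00000042821.7, chromosome 2, 167538195 to 167542814, plus strand) and Snai2 (ENSMUSG00000022676.7, chromosome 16, 14705852 to 14709385, plus strand) had log2 fold changes of opposite sign. Snai1, which is needed for mesoderm cells to leave the primitive streak, had parental levels of 22.7, 16.7, 16.8 and 16.4 CPM and mutant levels of 42.7, 25.7, 26.3 and 18.7 CPM. Mutant library 4 fell within the parental range, and the log2 fold change was 0.65 ± 0.26, or 0.80 without that library. Snai2, a factor of neural crest and cushion mesenchyme, had 59.6, 47, 57.1 and 53.9 CPM in the parental line against 57.3, 56.7, 47.6 and 30 CPM in the mutant line. Its log2 fold change was -0.18 ± 0.19, and -0.02 without mutant library 4, the one low value. Neither gene was called in any fit. Snai1 held 25 ± 2.33% of the CPM of the Snai pair in parental and 37 ± 4.82% in mutant libraries (SD, n = 4), without overlap.

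Zeb2 (ENSMUSG00000026872.18, chromosome 2, 44983632 to 45117395, minus strand), which is also expressed in blood and endothelial precursors, had 55.1, 46.6, 56.8 and 40.9 CPM in parental libraries. The mutant libraries had 97.4, 58.6, 58.7 and 92.6 CPM. All mutant values were above the parental ones, although libraries 2 and 3 only slightly so. The log2 fold change of 0.62 ± 0.19 was not past the threshold, except in the fit with no filter on low counts. Zeb1 (ENSMUSG00000024238.15, chromosome 18, 5591860 to 5775467, plus strand), the broadly expressed partner, had 115, 90.1, 88.1 and 114 CPM in the parental line against 127, 121, 108 and 117 CPM in the mutant line. These ranges overlapped, with a log2 fold change of 0.22 ± 0.13.

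Lack of overlap between the lines was seen in 5 of the 10 genes, each higher in the mutant line. Of all tested genes 7.52% showed no overlap, 3.49% with the mutant line higher and 4.04% with it lower. The contrast had been used to choose genes, so the count carries no test. The summed CPM of the 8 factors was 531 ± 40.3 in parental and 784 ± 107 in mutant libraries (SD, n = 4). The factors did not share evenly in this. The largest differences in mean were those of Twist1 (91.4 and 223 CPM) and Prrx1 (55.4 and 109 CPM). Prrx2 (129 and 137 CPM) added little, and Snai2 was lower in the mutant line (54.4 and 47.9 CPM). The parental sums ran from 477 to 574 CPM and the mutant sums from 669 to 927 CPM. Bulk RNA cannot tell more cells expressing a gene from more RNA per cell.

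**Figure D2:**
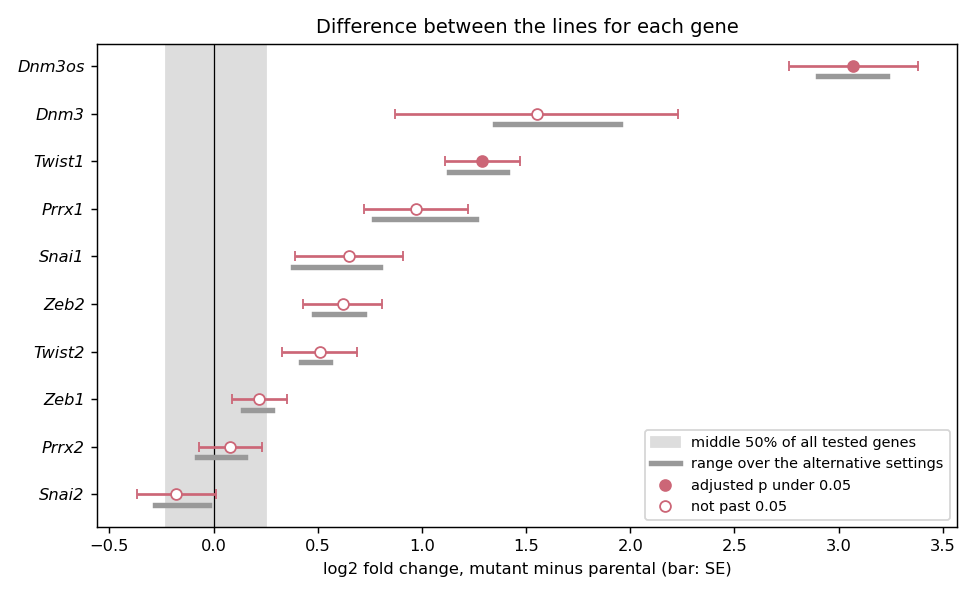
Log2 fold change of the mutant against the parental line (x axis) for each gene, with its standard error (thin bars), the range over 16 alternative fits (grey lines) and the middle 50% of all tested genes (grey band, -0.23 to 0.25). Dnm3os at 3.07 and Twist1 at 1.29 are the filled points, past an adjusted p of 0.05.

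The order of levels differed between the lines. In parental libraries Prrx2 was highest at 129 ± 14.0 CPM (SD, n = 4), above Zeb1 at 102 ± 14.6 and Twist1 at 91.4 ± 20.6 CPM, and the last 2 overlapped. Prrx1, Snai2 and Zeb2 followed at 55.4 ± 24.1, 54.4 ± 5.47 and 49.9 ± 7.45 CPM, each overlapping the next. Twist2, Snai1 and the Dnm3os and Dnm3 pair came after them, separated by gaps between their ranges. In mutant libraries Twist1 was highest, at 223 ± 54.8 CPM, and was above Prrx2, at 137 ± 30.8 CPM, in 4 of 4 libraries. Prrx2, Zeb1 (118 ± 7.77 CPM) and Prrx1 (109 ± 31.4 CPM) overlapped there. The ranges of these 2 nevertheless overlapped, since Twist1 in library 2 was below Prrx2 in library 4. Dnm3os, below Snai1 in every parental library, reached 29.8 ± 2.99 CPM and overlapped Snai1 at 28.4 ± 10.2 CPM.

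The partners of the Twist proteins were read next. The E proteins that dimerise with Twist1 and the Id proteins that sequester E proteins formed a list of 7 genes, all tested, of which 0 were called higher and 1 lower, with a median log2 fold change of 0.03. Id2 fell from 600.0 ± 32.4 to 396 ± 74.5 CPM (SD, n = 4), for a log2 fold change of -0.60 ± 0.12 (edgeR, adjusted p = 0.0124.) The Id2 call was lost without parental library 2, at an edgeR adjusted p of 0.0692. Among related bHLH factors of mesoderm, 5 of 10 were tested and 0 were called by edgeR, with 3 at an unadjusted p under 0.05 (11.9% of all tested genes), 3 called by DESeq2 (3% of all tested genes) and 2 by limma-voom (1.9%). Hand2, a heart field factor, had a log2 fold change of 0.40 ± 0.10 (edgeR, adjusted p = 0.0513). Scx, a factor of tendon and valve progenitors, had 5.18 ± 2.93 and 16.7 ± 10.8 CPM (edgeR, adjusted p = 0.115).

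Other transcription factors tied to the transition had a median log2 fold change of -0.22 over 20 tested genes of 25. None rose, and 3 fell. Foxc1, a forkhead factor of head and outflow mesenchyme, fell from 46.8 ± 7.79 to 22.6 ± 5.17 CPM (SD, n = 4), for a log2 fold change of -1.05 ± 0.21 (edgeR, adjusted p = 0.0124.) Sox4, a progenitor factor needed for outflow tract development, fell from 586 ± 46.6 to 437 ± 30.1 CPM (edgeR, adjusted p = 0.033). The third was Id2, which stood in both lists. The Foxc1 call was lost without mutant library 3 or parental library 2, at an edgeR adjusted p of up to 0.0727. The Sox4 call was kept only without mutant library 2 or parental library 4, reached an adjusted p of 0.152 in the other 6 such fits, and was lost with library size alone at 0.0864.

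Epithelial genes, which Snai and Zeb factors are known to repress, were read as 2 lists. Among factors that hold the epithelial state, 6 of 14 were tested, and Klf5 was the called gene. It rose from 31.7 ± 3.69 to 65.3 ± 21.3 CPM (SD, n = 4) (edgeR, adjusted p = 0.0135), and lost the call without mutant library 3, parental library 2 or parental library 3, at up to 0.0766. Of 36 junction and keratin genes 25 were tested, with 1 called higher, 1 called lower, 10 positive log2 fold changes and a median of -0.16. Dsc2, a desmosomal cadherin of epithelium and heart muscle, rose from 25.3 ± 7.18 to 56.4 ± 10.1 CPM, for a log2 fold change of 1.15 ± 0.21 (edgeR, adjusted p = 0.00671.) Krt18, a keratin of simple epithelium, fell from 100 ± 17.5 to 59 ± 6.96 CPM (edgeR, adjusted p = 0.0133). The Krt18 call was lost without mutant library 3, parental library 1 or parental library 2, at up to 0.0692.

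Mesenchymal cytoskeletal, adhesion and matrix genes had 39 of 45 members tested, with 5 called higher, 0 called lower and a median log2 fold change of 0.25, against 0.001 over all tested genes. The 5 were Col3a1, Col1a2, Col5a1, Postn and Vcan, which encode 3 chains of fibrillar collagens, periostin and the proteoglycan versican. Earlier results of these data had already shown them. Cytoskeletal and surface genes of the list did not pass the threshold. Vim, Cdh2, Cdh11 and Pdgfra had log2 fold changes of 0.24 ± 0.14, 0.19 ± 0.14, -0.09 ± 0.17 and -0.17 ± 0.16, and Fn1 had 0.39 ± 0.14. The surface genes Pdgfrb and Cd44 had 0.53 ± 0.19 and 0.58 ± 0.23. Over the 39 tested genes of the list, 30 log2 fold changes were positive and 9 negative. The Postn call was lost without parental library 3, at an edgeR adjusted p of 0.0515. The Vcan call was lost in 6 of 8 fits that left out 1 library (kept without parental library 1 or mutant library 4), at an edgeR adjusted p of up to 0.198, with library size alone at 0.0657 and with upper-quartile scaling at 0.0503.

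Genes that work downstream of or beside Twist1 and Prrx1 in mesenchyme had 26 of 28 members tested, with 1 called higher (Postn), 2 called lower and a median of -0.11. Bmp4, a ligand of outflow tract and limb mesenchyme, fell from 342 ± 58.5 to 127 ± 50.5 CPM (SD, n = 4), for a log2 fold change of -1.42 ± 0.22 (edgeR, adjusted p = 0.00165.) Fgf10, a ligand of second heart field and limb mesoderm, fell from 25.8 ± 6.02 to 11.1 ± 2.52 CPM (edgeR, adjusted p = 0.0262). The Fgf10 call was lost without mutant library 1, 2 or 3 or parental library 1 or 3, at up to 0.146. Signals known to switch these factors on had 25 of 28 genes tested, 0 called higher, 2 called lower and a median of -0.14. The second besides Bmp4 was Tgfb1, a ligand of the transition, which fell from 24.5 ± 7.73 to 9.92 ± 2.06 CPM, for a log2 fold change of -1.29 ± 0.29 (edgeR, adjusted p = 0.033.) Its call was kept only without mutant library 1 or parental library 3, and was lost with limma-voom at an adjusted p of 0.0677.

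Genes of microRNA biogenesis had 9 of 9 members tested and a median of -0.08. The called gene was Lin28a, an RNA-binding protein that blocks maturation of let-7, which fell from 241 ± 4.11 to 139 ± 31.8 CPM (SD, n = 4) (edgeR, adjusted p = 0.00415). The rows of the miR-200 family and of the other microRNA genes known to act on Zeb or Snai messages had 0 counts in every library.

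**Figure D3:**
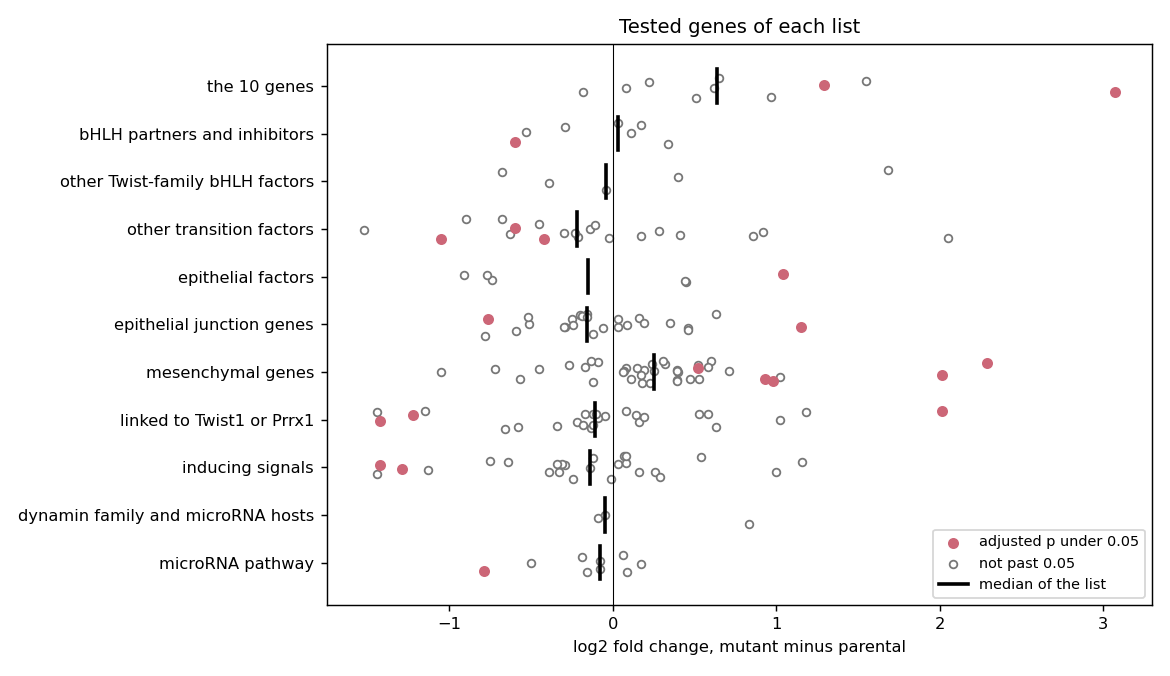
Log2 fold change (x axis) of every tested gene of the 10 examined genes and of each pathway list (rows, points spread vertically at random), with called genes filled and the list median as a black bar. The median of the 10 genes is 0.64, that of the mesenchymal list 0.25, and those of the other lists lie between -0.22 and 0.03.

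Twist1 and Dnm3os lie on different chromosomes, whereas Prrx1 and Dnm3os are on chromosome 1 with 1020 kb between the 2 genes and 1096 kb between their starts. Genes starting within 1 Mb of Twist1, Dnm3os or Prrx1 were therefore read, a property that played no part in the choice of the genes. Around Twist1 3 genes were tested, around Dnm3os 8 and around Prrx1 16, by the start on the gene's own strand. Leaving out Dnm3 and counting each gene once gave 21 neighbours with a median log2 fold change of -0.05 and a range of -0.84 to 0.99. With edgeR 0 of the 21 were called, 2 had an unadjusted p under 0.05, DESeq2 called 1 and limma-voom called 0. The gene called by DESeq2 was Prdx6, a peroxiredoxin, at a log2 fold change of -0.32 and an adjusted p of 0.0391.

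The nearest tested neighbours on each side were these. Hdac9, a histone deacetylase gene that points towards Twist1 and starts 959.4 kb from it, ran from 0.843 to 14.7 CPM in parental and from 3.49 to 6.22 CPM in mutant libraries, with a log2 fold change of -0.43 ± 0.68. Twistnb, on the other side, had 70.5 ± 5.52 and 72.7 ± 5.36 CPM (SD, n = 4). Beside Dnm3os and its host Dnm3, Pigc, an enzyme gene of GPI anchor synthesis, had 17.7 ± 5.01 and 22 ± 8.55 CPM, and Mettl13 had 26 ± 3.16 and 24.3 ± 11.2 CPM. Beside Prrx1, Gorab had 19.2 ± 3.73 and 25.3 ± 5.28 CPM, and Fmo1, a monooxygenase gene, 11.9 ± 7.02 and 12.9 ± 12.5 CPM. The unclassified transcript Gm37644 lies inside Prrx1 on the same strand, so that reads of the 2 cannot be told apart with certainty, and had 4 ± 2.04 and 6.35 ± 3.36 CPM.

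**Figure D4:**
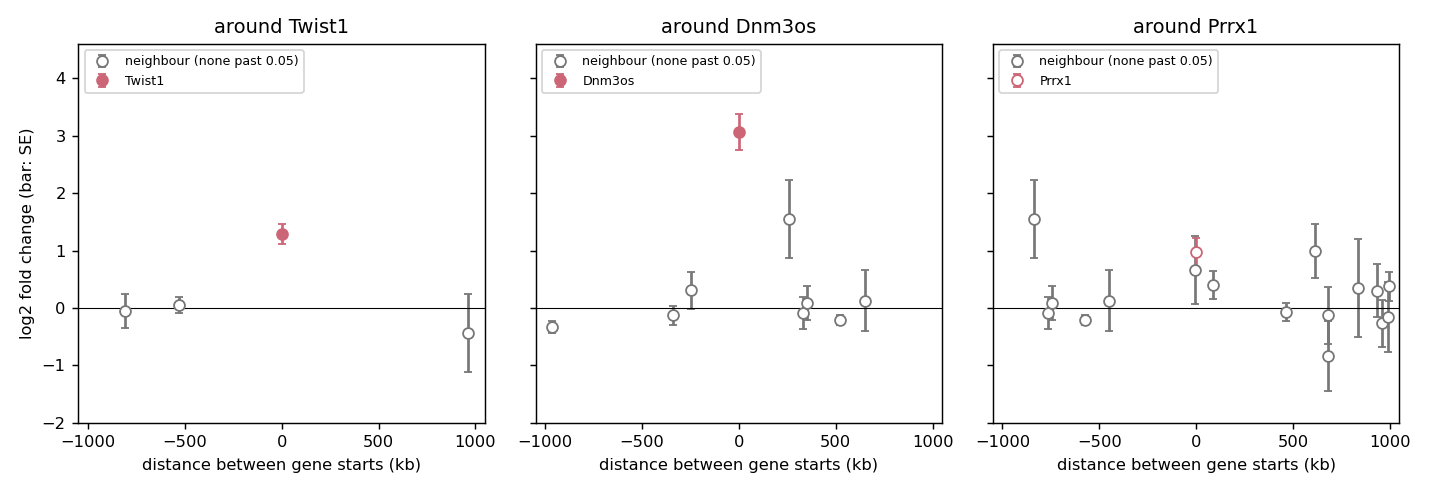
Log2 fold change with standard error (y axis) of the tested genes that start within 1 Mb of Twist1, Dnm3os and Prrx1, by distance between gene starts (x axis, kb; zero is the named gene, in red, filled where called). The named genes stand at 1.29, 3.07 and 0.97, and Dnm3, at 1.55, is the one other gene above 1 and appears in the windows of both Dnm3os and Prrx1.

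The stretch of 250 bases before the RefSeq start of Dnm3os is shown because Twist1 binds E-boxes (CANNTG, a palindromic pattern read on both strands), which are in capitals, 5′ to 3′ on the plus strand of GRCm38.p6.
Dnm3os (chr1:162217373-162217622): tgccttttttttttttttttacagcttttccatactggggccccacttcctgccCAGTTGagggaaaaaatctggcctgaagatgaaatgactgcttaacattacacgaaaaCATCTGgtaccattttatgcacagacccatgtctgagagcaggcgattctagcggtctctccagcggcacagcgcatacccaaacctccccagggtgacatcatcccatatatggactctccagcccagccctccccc
It held 2 E-boxes, CAGTTG and CATCTG, which begin 196 and 138 bases before the start. At least 1 E-box was found in 66.2% of 32851 RefSeq promoters of this length, and CATCTG, which is CAGATG on the other strand, in 14.4%. The Dnm3 promoter also held 2 E-boxes, one of them CATCTG. The Snai1 promoter held 1, CACCTG, a pattern present in 17.2% of promoters. The Twist1, Twist2, Prrx1, Prrx2 and 4 Zeb2 promoter windows held none. Promoter windows were searched for 8 of the 10 genes, and not for Snai2 and Zeb1. A match of these letters is a description and says nothing of binding.

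Matches to the seeds of the Dnm3os microRNAs were then sought in the longest annotated 3′ UTR of each gene (GENCODE M21), a choice made after the values were seen. The 7 bases opposite the miR-214-5p seed, GACAGGC, occurred once each in Twist1 and Prrx1, and are shown in capitals in their sequence because both genes had higher mutant means.
Twist1, site at base 207 of 703: agagaaagcgaGACAGGCccgtggacaga
Prrx1, site at base 3180 of 4894: tgatgacatcaGACAGGCagccaaggtac
This pattern was found in 11.8% of 11655 tested protein-coding genes. Zeb2 held 1 match for miR-199a-3p, Zeb1 held 1 for miR-199a-3p and 2 for miR-214-3p, and Dnm3 held 1 for miR-199a-5p. Across all tested genes, those with a match had median log2 fold changes of 0.004 for miR-199a-3p, 0.014 for miR-199a-5p, 0.01 for miR-214-3p and 0.017 for miR-214-5p. Genes without a match had medians of -0.004 to 0, and genes with a match had longer 3′ UTRs (for miR-214-5p a median of 2614 against 1311 bases).

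The genes most like Twist1 and Dnm3os over the 8 libraries were found by Pearson r of log2 CPM among 9025 genes with a mean of at least 10 CPM. The 8 points fall into 2 lines, so the difference between the lines sets much of r. For Twist1 they were Sfrp1 (r = 0.98), Tns1, Emg1, Zbed3 and Pcolce (r = 0.969). Sfrp1, a secreted WNT antagonist, had 57.8 to 94 CPM in the parental line against 115 to 154 CPM in the mutant line. With the mean of each line subtracted, r with Twist1 was 0.89 for Sfrp1, 0.94 for the focal adhesion protein Tns1, 0.84 for Prrx1, 0.28 for Twist2 and -0.54 for Dnm3os. Dnm3os and Twist1 were both known beforehand to differ between the lines, so nothing is read from their running together there. Their r of -0.54 within the lines rests on 8 points that share depth and scaling. Dnm3os had only 10 to 26 counts in the parental libraries.

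For Dnm3os the 5 were Cxcl12 (r = 0.984), Gm38042, Impact, Itm2a and Hbb-y (r = 0.968). Cxcl12, a chemokine of mesenchyme, had 35.2 to 44.8 CPM in the parental line against 69.7 to 73.7 CPM in the mutant line. Impact, an imprinted regulator of translation, had 80.7 to 94 and 173 to 192 CPM. Hbb-y, an embryonic globin, had 1.26 to 3.51 and 21.5 to 34.1 CPM. In each of these the lines did not overlap, with the mutant line higher, as in 3.49% of all tested genes. This follows largely from choosing them by r with Dnm3os, whose own lines did not overlap. Twist1 ranked 140 by r with Dnm3os. Without mutant library 4, 4 of the 10 genes named here stayed among the 5 most similar.

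Markers of other cell types were set beside these levels, since each of the factors is made by several types. Cardiomyocyte markers had 11 of 12 genes tested, all with negative log2 fold changes and a median of -1.25. With edgeR 0 were called and 7 had an unadjusted p under 0.05, DESeq2 and limma-voom called 0, and edgeR with the replicate number as a block called 5. Tnnt2 had 225 ± 148 and 94.3 ± 43.0 CPM (SD, n = 4) and Myh6 51.5 ± 50.3 and 17.2 ± 12.8 CPM. Their summed level was 3643, 1950, 878 and 629 CPM in parental libraries 1 to 4 and 829, 794, 966 and 122 CPM in mutant libraries. In parental libraries the order of this sum was the reverse of that of Prrx1 and of Twist1. Mutant library 4 had the lowest sum and the highest Prrx1 and Twist1. Mutant libraries 1 to 3 did not follow this, with Twist1 at 212, 158 and 232 CPM and Prrx1 at 76.8, 93.9 and 114 CPM. Among them the highest sum went with the highest Twist1 and Prrx1. Parental libraries 3 and 4 and mutant libraries 1 to 3 had sums of 629 to 966 CPM. Twist1 was at 101 and 115 CPM in the first 2 and at 158 to 232 CPM in the other 3. Prrx1 was at 61.3 and 86.2 CPM and at 76.8 to 114 CPM in the same libraries. These libraries were grouped after their values were seen, and the part of cardiomyocyte RNA in the difference between the lines was not tested.

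**Figure D5:**
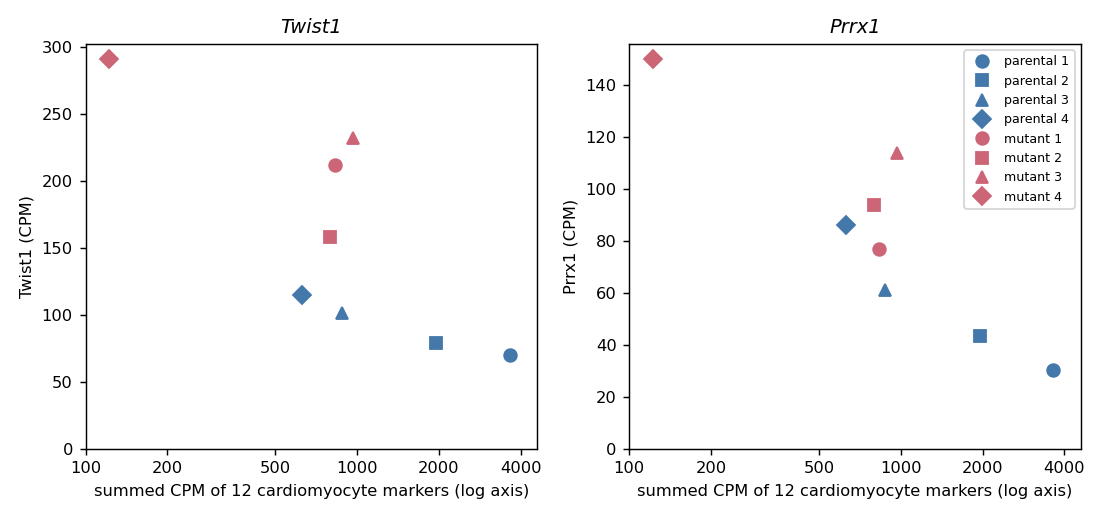
Twist1 (left) and Prrx1 (right) in CPM (y axes, linear) against the summed CPM of 12 cardiomyocyte markers (x axis, log scale), 1 point per library, with parental in blue and mutant in red. Parental libraries run from 3643 CPM of markers with the lowest Twist1 and Prrx1 to 629 CPM with the highest parental values, and mutant library 4 stands alone at 122 CPM. Among mutant libraries 1 to 3 the highest marker sum goes with the highest Twist1 and Prrx1.

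Neural crest, a well-known source of Twist1 and Snai2, had 5 of 14 markers tested, with 0 called by edgeR, 0 at an unadjusted p under 0.05 and 0 called by DESeq2 or limma-voom. Its summed level was 29.8 to 53.3 CPM in the parental line against 21.1 to 63.6 CPM in the mutant line. Sox10 and Foxd3, which define it, were at or near 0, with parental means of 0 and 0.283 CPM and mutant means of 0.272 and 0.618 CPM. Paraxial mesoderm and sclerotome markers had 6 of 12 tested, all negative, 0 called by edgeR, 1 at an unadjusted p under 0.05 and 0 called by the other tools. Their sums were 35.3 to 59 CPM in the parental line against 6.9 to 70.4 CPM in the mutant line, with Meox1 at 10.4 ± 4.77 and 5.59 ± 6.90 CPM (SD, n = 4) and Meox2 at 0.789 and 2.10 CPM.

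Limb and flank mesenchyme, where Prrx1 and Twist1 are abundant in the embryo, had 7 of 10 markers tested, with 2 called higher, 1 called lower and a median of 0.37. Tbx4, a T-box factor of hindlimb and allantois, rose from 20.6 ± 9.78 to 61.3 ± 20.0 CPM (SD, n = 4), for a log2 fold change of 1.58 ± 0.29 (edgeR, adjusted p = 0.00671.) Lhx2, a LIM homeodomain factor of limb bud and forebrain, rose from 2.26 ± 0.746 to 17.8 ± 15.4 CPM, and mutant library 4 was the highest at 40.4 CPM. Its log2 fold change of 2.96 ± 0.54 was 2.19 without that library, and its call was lost with limma-voom at an adjusted p of 0.104. Hoxd9 fell from 63.2 ± 11.5 to 36.6 ± 7.62 CPM (edgeR, adjusted p = 0.0428), a call that 6 of 8 fits leaving out 1 library lost (kept without mutant library 2 or parental library 2), at up to 0.156, as did scaling by library size alone at 0.0576 and the replicate block at 0.0529. Tbx5 had 9.39 ± 6.73 and 5.08 ± 3.47 CPM. The summed level of the list was 449 to 694 CPM in the parental line against 608 to 820 CPM in the mutant line.

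Blood and endothelium were included because Zeb2 is made there. Of 12 blood markers 11 were tested and 3 rose, the embryonic globins Hba-x, Hbb-bh1 and Hbb-y, and the summed level was 158 to 233 CPM in the parental line against 677 to 974 CPM in the mutant line, without overlap. Zeb2 was highest in mutant libraries 1 and 4, which also had the highest blood sums, at 974 and 813 CPM. Endothelial markers had 12 of 12 tested and 0 called by edgeR, with 1 at an unadjusted p under 0.05, 1 called by DESeq2 and 0 by limma-voom. Of the 12 log2 fold changes 10 were positive and 2 negative, with a median of 0.35, or 0.40 without mutant library 4. Their summed level was 649 to 1024 CPM in the parental line against 779 to 1407 CPM in the mutant line. Mutant library 1 was at 1407 CPM and mutant library 4 at 787 CPM. Kdr, the receptor of VEGF in endothelial precursors, had 252 ± 59.8 and 320 ± 121 CPM (SD, n = 4), and Pecam1 95 ± 27.2 and 78.4 ± 31.8 CPM. The part of blood or endothelial RNA in the Zeb2 levels was not tested.

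Smooth muscle and fibroblast markers had 9 of 12 tested, 0 called by edgeR, 2 at an unadjusted p under 0.05 and 0 called by DESeq2 or limma-voom, with Acta2 at 531 ± 409 and 390 ± 58.2 CPM (SD, n = 4) and Tagln at 4.20 ± 1.87 and 2.57 ± 1.73 CPM. Epicardial markers had 6 of 8 tested, 0 called by edgeR, 2 at an unadjusted p under 0.05 and 0 by the other tools. Of their log2 fold changes 3 were positive and 3 negative, with a median of 0.27, or -0.15 without mutant library 4. Tbx18 there had 1.92 ± 0.915 and 8.06 ± 5.71 CPM and Wt1 5.82 ± 3.73 and 8.72 ± 2.62 CPM. Mutant library 4 had the highest Tbx18, at 15.4 CPM, and mutant library 1, at 1.51 CPM, fell within the parental range. Endoderm had 9 of 12 tested and 2 called lower, Foxa2, with 15.3 ± 2.63 and 3.92 ± 2.27 CPM, and Krt18, while Sox17 had 25.1 ± 7.45 and 33.7 ± 8.60 CPM. The Foxa2 call was kept only without mutant library 1 or mutant library 4, and its edgeR adjusted p reached 0.111 in the other fits that left out 1 library. With limma-voom the Foxa2 call was lost too, at an adjusted p of 0.05.

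Neural markers had 8 of 12 tested, 0 called by edgeR, 1 at an unadjusted p under 0.05 and 0 by DESeq2 or limma-voom, with Sox1 at 4.35 and 2.68 CPM and Pax6 at 4.89 and 2.51 CPM in parental and mutant means. Pluripotency markers gave the same counts over 6 of 8 tested genes, with Pou5f1 at 0.405 and 0.690 CPM and Nanog at 2.99 and 3.50 CPM. Heart field mesoderm had 12 of 12 tested, 0 called higher and 4 called lower. The 4 were Tbx1, Nkx2-3, Fgf10 and Osr1, the last with a call that 2 of 8 fits leaving out 1 library kept. Nkx2-3, a homeodomain factor of pharyngeal endoderm and visceral mesoderm, fell from 20.9 ± 3.90 to 6.22 ± 2.89 CPM (SD, n = 4), a call lost without parental library 1 at an edgeR adjusted p of 0.0593.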

How the data were processed

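Counts per gene in 8 QuantSeq libraries were used as deposited. Per the submitters' processing notes the authors used STAR, featureCounts and the mm10 build, and the name of the deposited table gives forward-strand counting. Versions, annotation and removal of duplicates are not given in the sources used here. Groups and replicate numbers come from the sample titles, and no label says whether replicates were separate cultures, so p-values measure the spread between these samples, which may be technical. Of 55487 rows, 55227 received a symbol and coordinates from GENCODE M21 (GRCm38).

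After filterByExpr, 13280 genes were tested in edgeR 4.0.16 (R 4.3.3) with TMM scaling and the quasi-likelihood test (model: line), and Benjamini-Hochberg adjustment over all of them. This step was tested on simulated data. SEs were derived from the F statistic. Alternatives were other scalings and filters, DESeq2 1.42.0, limma-voom (limma 3.58.1), the replicate number as a block, an adjusted p under 0.01, and each library left out in turn. RefSeq promoters, mature microRNAs and M21 transcripts were searched by exact match.

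The 10 genes and all lists were chosen with earlier results of these data known. Named genes were Tbx1, the 10 genes and the dynamins. From each pathway list up to 6 called genes were named, or else the 2 with the smallest p. From each marker list up to 3 called genes and the first 2 written were named. Called and nearest neighbours and the 5 most similar genes were added. Vim, Cdh2, Cdh11, Pdgfra, Fn1, Pdgfrb, Cd44, Prdx6, Gm37644 and Osr1 were named after their values were seen. Total counts per library set the precision of low genes such as Dnm3. Intervals for counting error are not given, as no molecular identifiers are mentioned.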

Additional observations from a re-analysis of the deposited data

Results flagged for a closer look

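Among the 10 genes in each line (20 groups of 4 libraries), 1 value stood apart from the other 3 of its line by Dixon's criterion at the 95% level. Snai1 in parental library 1 was at 22.7 CPM, against 16.4 to 16.8 CPM in the other parental libraries, a gap of 0.949 of the range. Chance flags about 1 in 20 such groups.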

How the results depend on the processing

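The number of called genes was 188 and became 399 with DESeq2, 439 with no filter on low counts, 86 at an adjusted p under 0.01 and 103 to 235 when 1 library was left out (103 without parental library 2, 104 without parental library 3 and 116 without mutant library 3). Of the 10 genes 2 were called, 4 with no filter and 2 to 3 in the fits that left out a library. Of the 236 tested genes of the pathway and marker lists 25 were called, 52 with no filter, 13 at an adjusted p under 0.01 and 16 to 25 when 1 library was left out (16 without mutant library 3). Of the neighbours 0 were called, 1 with DESeq2 and 0 in each fit without 1 library. Of the 10 most similar genes, 4 remained without mutant library 4. Of the 35 called genes that the naming rule gave, which leaves out Osr1, 19 kept the call in all 8 fits that left out 1 library and 16 did not. Whether the replicate numbers pair the libraries is not given by the labels. Deviations of same-numbered libraries correlated between -0.033 and 0.102, and those of differently numbered ones between -0.078 and 0.062. Correlations over all genes cannot settle whether some genes share a replicate effect. A fit that took the number as a replicate block called 234 genes, of which 172 were also called without it, 3 of the 10 genes (Prrx1 added, log2 fold change 1.03) and 35 list genes, 5 of them cardiomyocyte markers, and lost Hoxd9 (adjusted p = 0.0529) and Zbed3 (adjusted p = 0.0563). For Dnm3 and other genes at a few CPM, depth limits what could be detected.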
